A study of Mus musculus with 68 samples.

Results

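Ezhip and the 6 core genes of Polycomb repressive complex 2 (PRC2) were followed across mouse oocytes and embryos. The 7 genes, chosen by name, were AU022751 (the name under which the deposited tables list Ezhip), Ezh2, Ezh1, Eed, Suz12, Rbbp4 and Rbbp7, out of 24941 gene names in the series. All 7 were present in each of the 8 deposited tables. Ezhip and Rbbp7 lie on the X chromosome, Ezh1 and Suz12 on chromosome 11, Ezh2 on chromosome 6, Eed on chromosome 7 and Rbbp4 on chromosome 4.

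Polyadenylated RNA of oocytes and embryos was sequenced by Smart-seq2, a method that copies whole transcripts from very small samples. Wild-type (WT) samples were set against FGO-labelled oocytes with the genotypes Ezhip Het and Ezhip KO, and against embryos with the genotypes Ezhip mHet and Ezhip mKO. The stages were the 1-cell embryo labelled PN5, the late 2-cell embryo, the 8-cell embryo, whole embryos at E3.5 and E4.25, and separate epiblast and extraembryonic ectoderm at E6.5. The labels do not spell out the prefix of mHet and mKO, the deleted part of the gene, the strain, the parents' genotypes or how many embryos went into a sample. All levels are FPKM, fragments scaled to transcript length and to the size of the library, a unit that allows comparison between genes of different length. Groups held 2 samples, except KO oocytes and mKO 8-cell embryos with 3, WT and mKO embryos at E4.25 with 4, all groups of the second E3.5 table with 5, and mHet embryos at the 8-cell stage and E4.25 with 1. Separate animals behind the replicates are not stated in the labels, and the spread that the p-values rest on may therefore be technical.

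PRC2 attaches methyl groups to lysine K27 of histone H3, a mark of repressed genes. Ezh2 and its relative Ezh1 are the alternative catalytic subunits, Suz12 is the scaffold, and Eed binds the finished mark and stimulates the enzyme. Rbbp4 and Rbbp7 are closely related histone-binding proteins that also serve other chromatin complexes. Ezhip carries a stretch that resembles the cancer-associated K27M form of histone H3, and through it inhibits the catalytic subunit. In the mouse the oocyte's methylation of K27 passes into the early embryo, where it silences some maternal alleles.

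The sequences before the annotated starts of Ezhip, Ezh2 and Rbbp7 are shown because these were the 3 members with the highest WT means in both oocytes and 1-cell embryos. Each window is the 250 bases upstream of the RefSeq start in the GRCm38.p6 build, printed 5′ to 3′ on the gene's own strand. Capitals mark CCAAT, the box bound by the factor NF-Y, or its reverse complement ATTGG. The Ezhip window is chrX:6083421-6083670 on the minus strand, the Ezh2 window chr6:47595031-47595280 on the minus strand and the Rbbp7 window chrX:162760122-162760371 on the plus strand.
Ezhip: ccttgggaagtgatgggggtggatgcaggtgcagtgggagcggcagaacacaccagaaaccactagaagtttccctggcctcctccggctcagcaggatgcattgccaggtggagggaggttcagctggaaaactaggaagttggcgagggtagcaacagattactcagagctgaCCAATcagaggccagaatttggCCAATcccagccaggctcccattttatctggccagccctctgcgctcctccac
Ezh2: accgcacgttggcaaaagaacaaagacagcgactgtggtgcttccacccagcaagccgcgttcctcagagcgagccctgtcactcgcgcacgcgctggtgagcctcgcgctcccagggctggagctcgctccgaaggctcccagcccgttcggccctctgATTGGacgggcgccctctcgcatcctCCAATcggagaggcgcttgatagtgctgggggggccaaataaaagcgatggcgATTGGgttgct
Rbbp7: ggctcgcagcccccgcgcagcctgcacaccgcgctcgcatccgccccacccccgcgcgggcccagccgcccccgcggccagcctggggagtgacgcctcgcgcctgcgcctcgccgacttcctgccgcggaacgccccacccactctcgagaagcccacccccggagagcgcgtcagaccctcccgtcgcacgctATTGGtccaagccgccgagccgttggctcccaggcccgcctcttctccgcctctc
The Ezhip window held 2 CCAAT boxes, the Ezh2 window 3 and the Rbbp7 window 1. Suz12 and Rbbp4 had 1 each and Ezh1 and Eed 0. Of all 32851 RefSeq windows of this length, 33.85% held at least 1 such box on either strand, 10.09% at least 2 and 2.79% at least 3. The sequence TATAAA was in 0 of the 7 windows on either strand and in 12.37% of all windows. The Ezhip window stood apart from the core genes in its CG content, with 4 CG dinucleotides against 12 in Eed, 14 in Ezh1, 23 in Ezh2, 30 in Rbbp4, 34 in Rbbp7 and 37 in Suz12. The median of all windows was 6, and 37.77% of them held fewer CG dinucleotides than the Ezhip window.

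Some samples stood apart, and they touch the results that follow. The 7 oocyte samples fell into 2 sets by how many genes reached 1 FPKM. WT 1, Het 1, KO 1 and KO 2 had 7316 to 8443 such genes, and WT 2, Het 2 and KO 3 had 9432 to 9801. At E4.25 the WT samples had 5923 to 7207 genes and the mKO samples 7194 to 8988, and Rn45s, the ribosomal RNA precursor, took 21.0 to 68.6% and 11.7 to 52.4% of the summed FPKM. Read depth cannot be recovered from FPKM, so no counting interval is given. The mHet samples 1 and 2 at E4.25 held identical values and were counted as 1. In the first E3.5 table both WT and both mHet samples held Y-linked transcripts and both mKO samples lacked them, so genotype and sex cannot be told apart there. At E6.5 the mHet samples of both tissues lacked them. Epiblast WT 3 and extraembryonic ectoderm WT 1 held them, and epiblast WT 4 and extraembryonic ectoderm WT 2 did not. Genotype and sex are thus partly mixed in the mHet comparisons at E6.5. Marker sums went with the labels in oocytes and at E6.5, although markers of the other tissue were present in both E6.5 tissues. All 7 oocyte markers were present in the FGO samples, where the summed level of the follicle cell markers stayed between 1.08 and 14.3 FPKM with Amh at 0. At E6.5 the epiblast markers summed to 714 to 1033 FPKM in epiblast and 212 to 329 in extraembryonic ectoderm, and the extraembryonic ectoderm markers to 7.36 to 53.9 and 235 to 351.

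Ezhip was among the most abundant transcripts of WT oocytes and 1-cell embryos and was nearly gone by the 8-cell stage. WT oocytes held 546 and 297 FPKM and WT 1-cell embryos 251 and 368 FPKM. These values lay at percentiles 97.8 to 98.8 of the genes at 1 FPKM or more in the same sample, and the 2 stages overlapped. WT late 2-cell embryos held 15.9 and 15.7 FPKM, a mean 19.6-fold below the 1-cell mean and at percentiles 68.9 to 69.5. The 8-cell mean was a further 18.3-fold lower, at 1.50 and 0.229 FPKM. From the 8-cell stage on, 22 of 48 samples of any genotype listed Ezhip at 0, and 3 samples, all WT, reached 1 FPKM. All 4 WT samples at E4.25 were listed at 0. Both E6.5 tissues stayed below 1 FPKM, with WT epiblast at 0.618 and 0.772 and WT extraembryonic ectoderm at 0.177 and 0.690 FPKM. The mKO epiblast was at 0 and 0.630 FPKM, overlapping with WT, and the mHet epiblast at 0.0458 and 0.0563 FPKM. The stages come from tables that were normalized separately, so the course is a description with no test. The WT means of the 2 tables of E3.5 embryos, set side by side, differed by 1.72-fold for Ezh2 and by up to 2.67-fold for Eed at the same nominal stage.

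**Figure D1:**
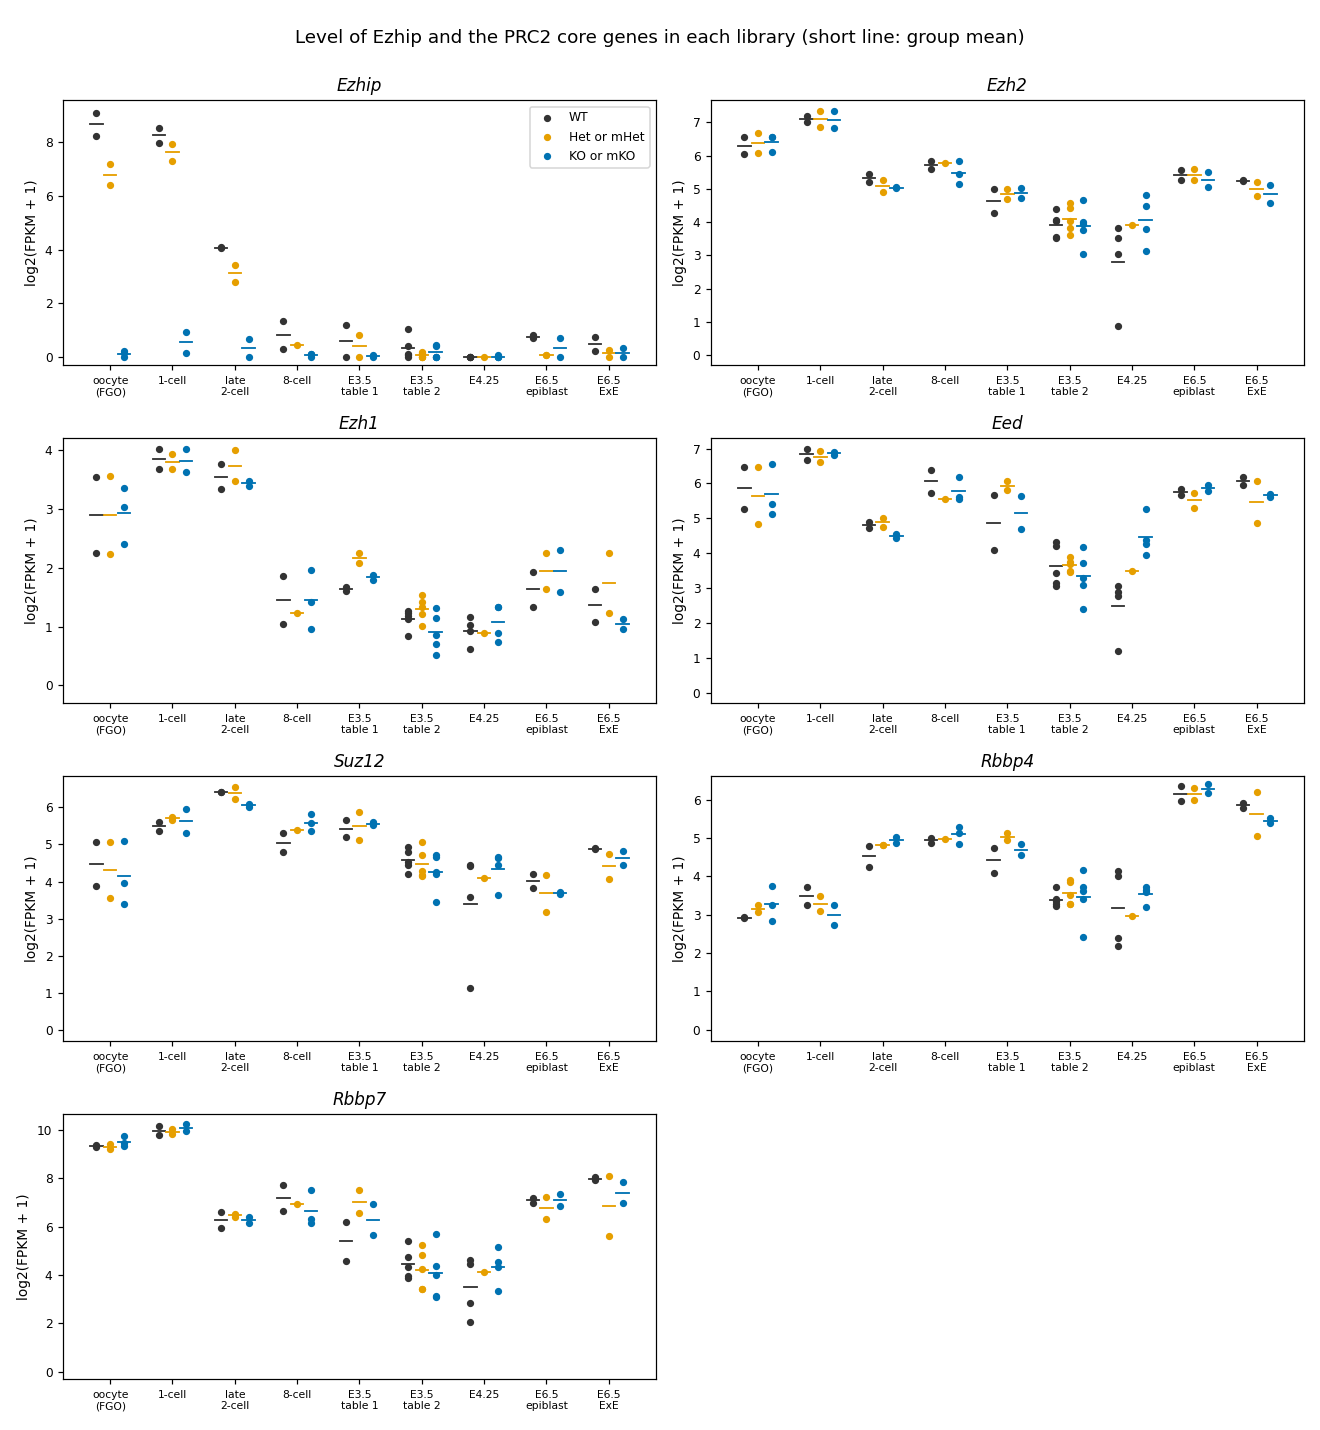
Level of each member in every sample, as log2(FPKM + 1) on the vertical axis and stage on the horizontal axis, with WT in black, Het or mHet in orange, KO or mKO in blue and a short line at each group mean. Ezhip is high in WT oocytes and 1-cell embryos and near 0 from the 8-cell stage on, whereas the core genes are present throughout.

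The genotype labels could be checked at the 3 stages at which WT samples expressed Ezhip. KO oocytes held 0, 0.175 and 0.117 FPKM, all far below the WT samples. The change was -8.53 on the log2(FPKM + 1) scale (SE 0.61, limma adjusted p = 6.36e-13), and Ezhip was the single gene called among 9818, or 0.0102%. By limma 11 genes (0.112%) had an unadjusted p under 0.05, fewer than that threshold alone would give. The lack of other calls therefore does not show that other transcripts were unchanged. At the 1-cell stage mKO embryos held 0.933 and 0.124 FPKM (log2 change -7.69, SE 0.35, limma adjusted p = 0.000977), again the single gene called, of 8604 or 0.0116%. That call ended with no filter on low values (limma adjusted p = 0.0656). In late 2-cell mKO embryos the values were 0 and 0.585 FPKM (log2 change -3.74, SE 0.36, limma adjusted p = 0.0433), the single gene called of 10322 or 0.00969%. The late 2-cell call did not survive the removal of any 1 WT or mKO sample. Adjusted p was 0.442 without WT 1, 0.276 without WT 2, 0.534 without mKO 1 and 0.216 without mKO 2, with log2 changes between -4.07 and -3.41.

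Heterozygous samples lay between WT and knockout at all 3 stages and overlapped neither. The heterozygous and WT groups also did not overlap for 3.45% of all genes in oocytes, 22.7% at the 1-cell and 30.3% at the late 2-cell stage. Het oocytes held 143 and 84.1 FPKM, which was 26.2% and 28.3% of the WT sample with the same replicate number. The 1-cell mHet embryos held 157 and 244 FPKM, or 62.4% and 66.3%, and the late 2-cell mHet embryos 5.92 and 9.80 FPKM, or 37.1% and 62.4%. None of these differences from WT passed the test. The log2 change was -1.87 in oocytes (SE 0.67, 95% interval -3.22 to -0.51), -0.63 in 1-cell embryos (SE 0.35, interval -1.47 to 0.20) and -0.96 in late 2-cell embryos (SE 0.36, interval -1.78 to -0.14), each with a limma adjusted p of 1. By p-value Ezhip took rank 4 among all genes in Het oocytes, rank 253 in 1-cell and rank 143 in late 2-cell mHet embryos. In each of these comparisons limma called 0 genes, with 7, 72 and 303 genes at an unadjusted p under 0.05.

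The Ezhip to Ezh2 ratio within a sample does not depend on how that sample was scaled, and its WT mean was lower at each later of the first 3 stages. At each of these stages the heterozygous and knockout means were below the WT mean. In WT oocytes the ratio was 8.45 and 3.19, so that Ezhip exceeded its catalytic target in both samples. The higher value is of WT 1, from the oocyte set with fewer genes detected. In Het oocytes the sample of that set, Het 1, also had the higher ratio, so the WT oocyte mean depends on the set. In WT 1-cell embryos the ratio was 1.72 and 2.91, and in WT late 2-cell embryos 0.447 and 0.367. The samples of the 3 stages did not overlap between oocytes and 1-cell embryos, nor between 1-cell and late 2-cell embryos, although WT oocyte sample 2 and 1-cell sample 2 stood close. Het oocytes had ratios of 2.15 and 0.829, 1-cell mHet embryos 0.979 and 2.13, and late 2-cell mHet embryos 0.158 and 0.336. The mHet and WT ratios overlapped at the 1-cell stage and did not in oocytes or late 2-cell embryos. Knockout ratios were 0, 0.00188 and 0.00124 in oocytes, 0.00583 and 0.00111 in 1-cell embryos, and 0 and 0.0187 in late 2-cell embryos. Over all 67 samples Ezhip exceeded Ezh2 in 6, namely the 4 WT samples of oocytes and 1-cell embryos, Het oocyte sample 1 and mHet 1-cell sample 2. From the 8-cell stage on the highest ratio in any sample was 0.0667.

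**Figure D2:**
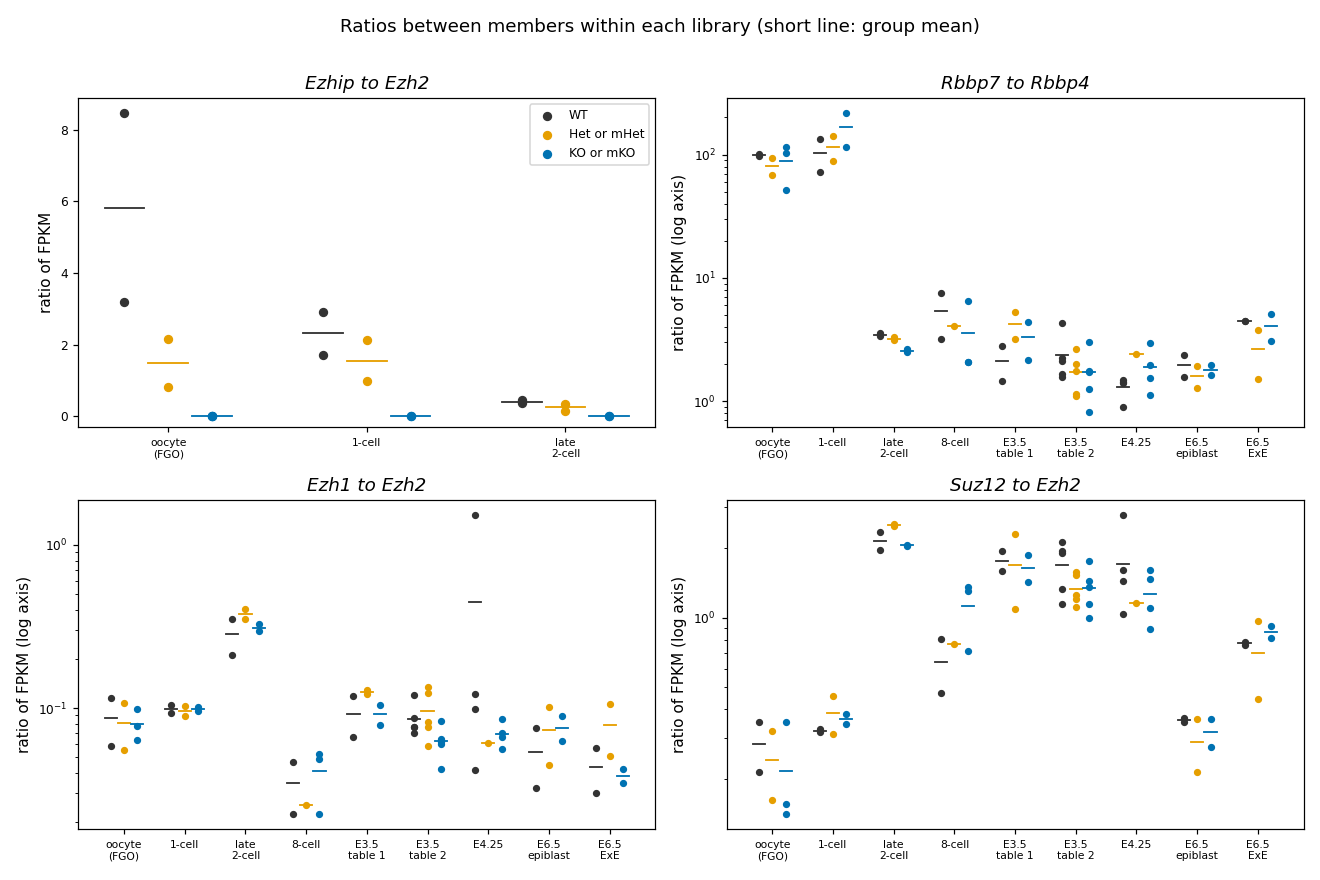
Ratios of FPKM between pairs of members within each sample, on a linear axis for Ezhip to Ezh2 at its 3 expressing stages and on log axes for the other pairs at all stages, coloured by genotype with a short line at each group mean. The Ezhip to Ezh2 ratio is above 1 in all 4 WT samples of oocytes and 1-cell embryos, and the Rbbp7 to Rbbp4 ratio is at least 52.0 in oocytes and 1-cell embryos and at most 7.53 at all later stages.

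Ezh2 was the more abundant catalytic gene in all but 1 sample. In WT it stood at 64.6 and 93.2 FPKM in oocytes, 146 and 127 in 1-cell embryos, 35.7 and 42.8 in late 2-cell embryos and 56.5 and 47.4 in 8-cell embryos. The 1-cell samples were the highest and the step down to the late 2-cell stage was 3.48-fold without overlap. WT blastocyst-stage samples were lower, at 18.5 and 31.0 FPKM in the first E3.5 table, a median of 15.3 (10.4 to 20.1) in the second and 13.0, 7.31, 0.819 and 10.5 at E4.25. The E6.5 tissues were higher again, at 46.8 and 37.6 FPKM in epiblast and 37.1 and 36.9 in extraembryonic ectoderm. In the order of WT means, the 1-cell, oocyte and 8-cell stages each stood clear of the next. Late 2-cell samples overlapped with both E6.5 tissues, and from the first E3.5 table through the second to E4.25 each group overlapped with the next. The E4.25 mean was 17.2-fold below the 1-cell mean. WT sample 3, the lowest there, had 68.6% of its FPKM in Rn45s.

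Ezh1, which is known as the catalytic subunit of resting cells, was a low-level transcript that was highest up to the late 2-cell stage. WT oocytes held 3.76 and 10.7 FPKM, 1-cell embryos 15.3 and 11.9 and late 2-cell embryos 12.6 and 9.09. The 8-cell samples were at 2.65 and 1.06 FPKM, a mean 5.85-fold below the late 2-cell mean and without overlap. From the 8-cell stage on WT group means stayed between 0.927 FPKM at E4.25 and 2.17 FPKM in E6.5 epiblast, and neighbours in that order overlapped. Ezh2 exceeded Ezh1 in 66 of 67 samples, the exception being WT sample 3 at E4.25. Among the oocyte, 1-cell, late 2-cell and 8-cell tables the Ezh1 to Ezh2 ratio was highest at the late 2-cell stage, at 0.353 and 0.213 in WT, 0.402 and 0.349 in the mHet samples and 0.295 and 0.326 in the mKO samples. The WT ratios were 0.0582 and 0.115 in oocytes, 0.105 and 0.0937 in 1-cell embryos and 0.0469 and 0.0224 in 8-cell embryos. All 6 late 2-cell samples were thus above all 19 other samples of the oocyte, 1-cell and 8-cell tables.

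Eed followed Ezh2 closely over the stages. WT oocytes held 37.4 and 88.5 FPKM, 1-cell embryos 127 and 100.4, late 2-cell embryos 28.6 and 25.5 and 8-cell embryos 52.0 and 82.6. The late 2-cell samples were below those of both neighbouring stages without overlap. At E3.5 the WT samples were at 16.1 and 49.4 FPKM in the first table and at a median of 9.78 (7.33 to 18.9) in the second. WT samples at E4.25 were the lowest, at 7.32, 6.45, 1.27 and 5.83 FPKM, and E6.5 epiblast (49.6 and 56.2) and extraembryonic ectoderm (61.6 and 71.9) were again high. Over the 9 WT stage means on the log2(FPKM + 1) scale, Pearson's r of Eed with Ezh2 was 0.93 and of Rbbp7 with Ezh2 0.96, the highest of any pair of members. These means share the scaling of their tables, so the correlation is a description with no p.

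Suz12 took a different course and had its highest level at the late 2-cell stage, when the mouse embryo activates its own genome. WT samples held 13.8 and 32.8 FPKM in oocytes, 47.9 and 40.2 in 1-cell embryos, 83.7 and 84.1 in late 2-cell embryos and 26.5 and 38.4 in 8-cell embryos. The late 2-cell mean was 1.91-fold above the 1-cell mean and 2.59-fold above the 8-cell mean, without overlap with either. Over the same step from the 1-cell to the late 2-cell stage Ezh2, Eed and Rbbp7 were 3.48-fold, 4.21-fold and 13.0-fold lower. The Suz12 to Ezh2 ratio, which scaling does not touch, moved from 0.328 and 0.318 in WT 1-cell embryos to 2.35 and 1.97 in WT late 2-cell embryos. Suz12 exceeded Ezh2 in 0 of 13 oocyte and 1-cell samples, in all 6 late 2-cell samples and in 30 of 48 later ones. At E3.5 WT samples were at 35.9 and 49.1 FPKM in the first table and at a median of 22.1 (17.5 to 29.8) in the second. At E4.25 they were at 20.9, 20.3, 1.18 and 10.9 FPKM, with sample 3 again the low one.

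Rbbp7 was the most abundant member in oocytes and 1-cell embryos, whereas Rbbp4 and Ezh1 had the lowest WT means there. Rbbp7 stood at 671 and 637 FPKM in WT oocytes and 1139.5 and 886 in WT 1-cell embryos, at percentiles 98.9 to 99.6 of the expressed genes. WT late 2-cell embryos held 60.3 and 95.9 FPKM, a 13.0-fold lower mean. From the 1-cell to the late 2-cell stage Rbbp4 went the other way, with a 2.15-fold higher mean. Rbbp4 had higher WT means at each later stage up to the 8-cell embryo. It stood at 6.58 and 6.59 FPKM in oocytes, 8.58 and 12.2 in 1-cell, 17.9 and 26.8 in late 2-cell and 30.8 and 28.4 in 8-cell embryos. The Rbbp7 to Rbbp4 ratio was 102 and 96.7 in WT oocytes, 133 and 72.4 in WT 1-cell embryos, 3.36 and 3.58 in WT late 2-cell embryos and 3.21 and 7.53 in WT 8-cell embryos. The ratio was at least 52.0 in the 13 oocyte and 1-cell samples of any genotype and at most 7.53 in the others. Rbbp7 still exceeded Rbbp4 in 65 of 67 samples, with WT sample 3 at E4.25 and mKO sample 6 of the second E3.5 table as the exceptions. Both genes were low at E3.5 and E4.25 and high at E6.5. There Rbbp4 reached its highest WT mean of 71.0 FPKM in epiblast (61.5 and 80.5), and Rbbp7 stood at 146 and 126 FPKM in epiblast and 267 and 241 in extraembryonic ectoderm.

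The extremes of the stage course depended in part on scaling. Between the highest and lowest WT means the fold was 74.9 for Rbbp7, 21.8 for Eed, 17.2 for Ezh2, 14.7 for Ezh1, 10.8 for Rbbp4 and 6.30 for Suz12. E4.25, which held the WT samples with the largest Rn45s shares, was the lowest stage for all of these but Rbbp4, whose lowest stage was the oocyte. With Rn45s removed and the rest rescaled, the lowest stage became extraembryonic ectoderm for Ezh1 and epiblast for Suz12, and with median ratio scaling it also became extraembryonic ectoderm for Ezh2. The highest stage of each gene stayed the same under both scalings, but the fold moved. Between the highest and lowest stage under median ratio scaling it was 26.9 for Rbbp7, 7.39 for Eed, 6.31 for Ezh2, 14.6 for Ezh1, 4.95 for Rbbp4 and 7.24 for Suz12. With Rn45s removed it was 45.0 for Rbbp7, 11.9 for Eed and 9.57 for Ezh2.

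The comparison of knockout with WT asked whether loss of Ezhip altered the transcripts of the complex it inhibits. Over 9 comparisons and 6 core genes, 1 of 54 tests passed, Eed at E4.25, in the comparison that called 14.6% of all genes. The other 8 comparisons called at most 0.0539% of all genes. The log2 change was positive in 28 tests and negative in 26. The next smallest limma adjusted p was 0.190, for Ezh2 at E4.25. The 95% intervals, which are not adjusted for the number of genes, extended between 0.39 and 1.84 to either side of the log2 change. Changes of that size were not detectable, and with the adjustment over all genes kept larger ones could be missed too. Ezhip itself passed the filter on low values only up to the late 2-cell stage, so 7 of 7 members were tested there and 6 of 7 later.

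In heterozygous samples 0 of 42 core tests in 7 comparisons passed limma, and 0 had an unadjusted p under 0.05. In the first E3.5 table the mHet and WT samples did not overlap for Ezh1, Eed, Rbbp4 and Rbbp7, all higher in mHet. The groups also did not overlap for 49.9% of all genes, and limma called 0 (762 at an unadjusted p under 0.05). Rbbp7 stood at 94.2 and 181 FPKM in mHet against 23.3 and 72.4 in WT (log2 change 1.64, SE 0.81, limma adjusted p = 0.502). Without WT 2 it passed (2.44, limma adjusted p = 0.0376), in a fit with 1 WT sample left, which is assumed to vary like the other groups of the table. Eed stood at 54.7 and 66.3 against 16.1 and 49.4 FPKM (1.06, SE 0.72). Over all genes the median log2 change was 0.43. In mHet extraembryonic ectoderm, where genotype and sex are partly mixed, limma called 0 genes (650 at an unadjusted p under 0.05). There Eed stood at 66.0 and 27.9 FPKM and Rbbp7 at 274 and 48.7, and without mHet 1 both were called, at log2 changes of -1.23 (limma adjusted p = 0.0111) and -2.36 (0.00473). That fit holds 1 mHet sample of this tissue, sample 2 with 11.6% of its FPKM in Rn45s, and takes its spread from the other groups. In the second E3.5 table limma called 0 genes (150 at an unadjusted p under 0.05) and in mHet epiblast 0.0272% of genes, with no core gene among them.

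In KO oocytes Ezh2 stood at 67.9, 93.0 and 93.9 FPKM against 64.6 and 93.2 in WT (log2 change 0.11, SE 0.46, limma adjusted p = 1). Oocyte levels of several members followed the 2 sets of samples named above rather than the genotype. Eed was at 37.4, 27.6, 34.2 and 41.2 FPKM in WT 1, Het 1, KO 1 and KO 2 and at 88.5, 87.4 and 93.3 in WT 2, Het 2 and KO 3. Suz12 was at 13.8, 10.8, 9.57 and 14.5 FPKM in the first set and at 32.8, 32.7 and 33.3 in the second. Ezh1 was at 3.76, 3.70, 4.31 and 7.21 FPKM against 10.7, 10.9 and 9.28, with KO 2 between the sets at 7.21. Ezh2 was at 64.6 to 67.9 FPKM in 3 samples of the first set, but KO 2 stood with the second set. Rbbp7, at 671 and 637 FPKM in WT and 647 to 870.2 in KO, did not split in this way, nor did Rbbp4. Ezhip was higher in WT 1 and Het 1 of the first set (546 and 143 FPKM) than in WT 2 and Het 2 of the second (297 and 84.1).

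In 1-cell mKO embryos the core genes kept close to WT. Ezh2 stood at 160.0 and 112 FPKM against 146 and 127, Eed at 118 and 112 against 127 and 100.4, Suz12 at 61.0 and 38.5 against 47.9 and 40.2, and Rbbp7 at 1209.0 and 995 against 1139.5 and 886. All 6 overlapped with WT, whereas 25.7% of all genes did not. The largest difference was in Rbbp4, at 5.58 and 8.58 FPKM in mKO against 8.58 and 12.2 in WT (log2 change -0.50, SE 0.29, 95% interval -1.20 to 0.19).

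In late 2-cell mKO embryos 4 of the 6 core genes did not overlap with WT, beside 36.9% of all genes, and none of the 4 passed the test in this comparison with 0.00969% of genes called. Ezh2 stood at 32.4 and 31.2 FPKM against 35.7 and 42.8 (log2 change -0.29, SE 0.24). Eed stood at 20.6 and 22.4 against 28.6 and 25.5 (-0.31, SE 0.23), and Suz12 at 66.6 and 64.0 against 83.7 and 84.1 (-0.36, SE 0.23). Rbbp4 was on the other side, at 28.2 and 31.5 FPKM against 17.9 and 26.8 (0.43, SE 0.26). The limma adjusted p of these 4 ran from 0.786 to 0.876, beside a median of -0.07 over all genes. The 7 markers of the 2-cell embryo summed to 162 to 209 FPKM in mKO and 94.2 to 109 in WT, and their part in these differences was not tested.

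At the 8-cell stage Suz12 was the 1 core gene of 6 without overlap, beside 16.6% of all genes, at 46.3, 40.1 and 55.1 FPKM in mKO against 26.5 and 38.4 in WT (log2 change 0.54, SE 0.34, limma adjusted p = 0.999). Of all genes 0.012% were called. In the first E3.5 table all 6 core means were higher in mKO, Ezh1 without overlap (25.8% of all genes did not overlap), with a median log2 change of 0.26 beside 0.21 for all genes and 0 called, where 0.0407% of all genes were called. Rbbp7, X-linked, stood at 49.3 and 121 FPKM in mKO and 23.3 and 72.4 in WT, which differ in sex as well. In the second E3.5 table, with 5 samples a group, 5 of 6 core genes had a negative log2 change in mKO. The core median was -0.26 beside -0.10 for all genes, and 0 core genes were called where 0.0539% of all genes were. All 6 overlapped with WT there, and 1.88% of all genes did not. Ezh2 had a median of 14.5 FPKM (7.26 to 24.5) in mKO and 15.3 (10.4 to 20.1) in WT, a log2 change of -0.02 (95% interval -0.76 to 0.73).

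**Figure D3:**
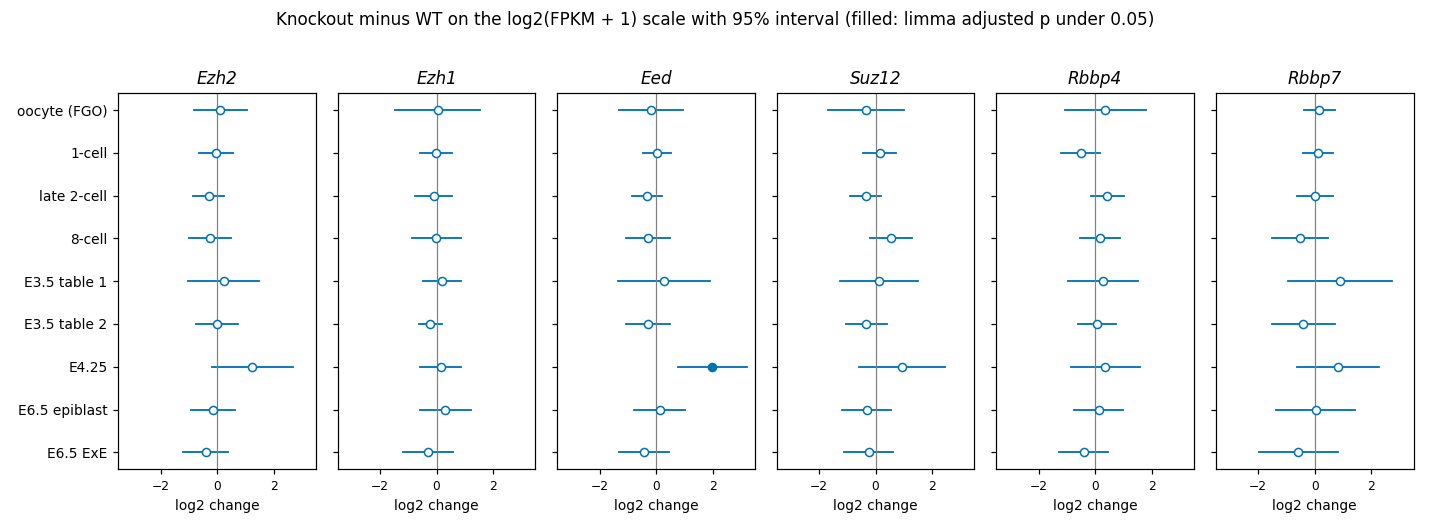
Change of each core gene in knockout minus WT on the log2(FPKM + 1) scale (horizontal axis) at each stage (vertical axis), with the 95% interval from limma and a filled point where the adjusted p is under 0.05. Of the 54 points 1 is filled, Eed at E4.25.

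At E4.25 Eed was higher in mKO embryos in all 4 samples. It stood at 19.8, 37.5, 14.4 and 18.3 FPKM in mKO and at 7.32, 6.45, 1.27 and 5.83 in WT, with the single mHet sample at 10.2 between them. The groups did not overlap, as was so for 21.9% of all genes (log2 change 1.99, SE 0.58, limma adjusted p = 0.0339). This comparison called 14.6% of all 9550 genes, 1370 higher and 24 lower, with a median log2 change of 0.74 over all genes. The other core means were also higher in mKO, with log2 changes of 1.25 for Ezh2 (SE 0.67), 0.95 for Suz12 (SE 0.72), 0.83 for Rbbp7 (SE 0.68), 0.36 for Rbbp4 (SE 0.57) and 0.14 for Ezh1 (SE 0.34), none past the test. The core median of 0.89 stood beside the all-gene median of 0.74.

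The number of genes detected and the Rn45s share moved with the Eed difference. With median ratio scaling the log2 change of Eed was 1.08 (limma adjusted p = 0.238), with Rn45s removed 1.67 (0.0630), and with the number of genes detected as a covariate 0.71 (0.762). The call also ended with a pseudocount of 0.1 (0.0512), with no filter on low values (0.0816) and without WT 2 (0.0605), WT 3 (0.0535), mKO 1 (0.0823), mKO 2 (0.110) or mKO 4 (0.0916). Relative to Ezh2 in the same sample, Eed was at 1.55, 1.74, 1.84 and 0.674 in mKO and at 0.561, 0.883, 1.55 and 0.555 in WT. These ratios overlapped through mKO 4 and WT 3. The inner cell mass markers summed to 61.8 to 115 FPKM in mKO and 8.42 to 32.0 in WT, with 6 of 6 detected in both, and the trophectoderm markers to 283 to 1031 and 35.2 to 360 FPKM. Their part in the Eed difference was not tested. In bulk samples fewer cells of a type and less RNA per cell cannot be told apart.

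**Figure D4:**
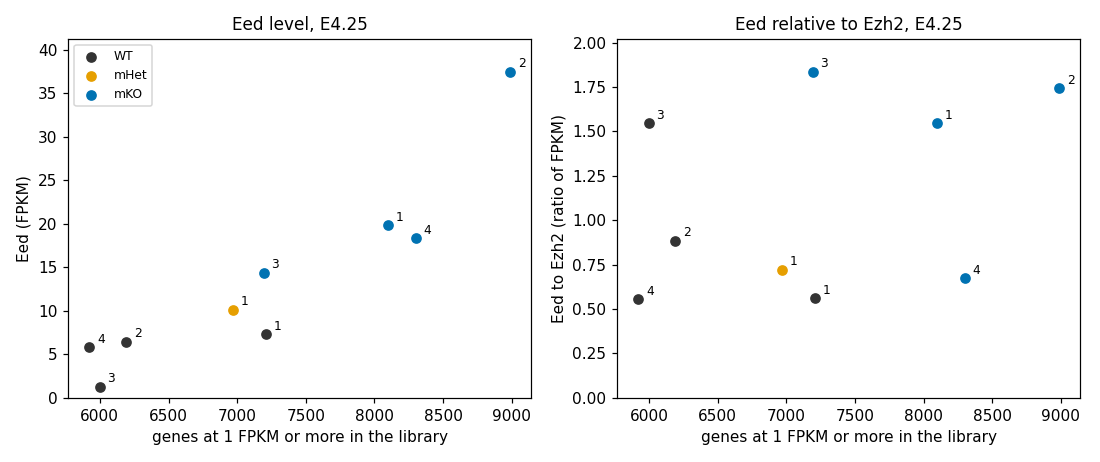
Eed at E4.25 in each sample, as FPKM (left) and as the ratio to Ezh2 (right), against how many genes reached 1 FPKM in that sample, with replicate numbers beside the points. The mKO samples are above the WT samples in the left panel and mostly have more genes detected, and the groups overlap in the right panel.

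At E6.5 the mKO epiblast kept all core genes near WT, and 0 were called where limma called 0.00907% of all genes. Ezh2 stood at 44.3 and 32.1 FPKM against 46.8 and 37.6 in WT, and Eed at 61.6 and 53.7 against 49.6 and 56.2. Suz12 was the 1 core gene of 6 without overlap, beside 41.7% of all genes, at 12.2 and 11.7 FPKM against 17.3 and 13.2 (log2 change -0.32, SE 0.40). In mKO extraembryonic ectoderm all 6 core means were lower and 5 did not overlap with WT. Of all genes 33.4% were higher, 51.4% did not overlap, and limma called 0 of 11028 (854 at an unadjusted p under 0.05). Rbbp7 stood at 125 and 230.5 FPKM against 267 and 241 (-0.58, SE 0.65), Eed at 48.0 and 50.9 against 61.6 and 71.9 (-0.42, SE 0.41), and Ezh2 at 22.6 and 33.8 against 37.1 and 36.9 (-0.41, SE 0.36). The core median log2 change was -0.40 and that of all genes -0.19. A test of whether the mKO effect differed between the tissues called 0 of 11028 genes by limma (376 at an unadjusted p under 0.05), core genes included. The visceral endoderm markers reached 26.6 FPKM in an mKO sample of extraembryonic ectoderm against at most 3.05 in WT. Of the 6 epiblast markers, 6 reached 1 FPKM in WT samples of this tissue and 3 in mKO samples, where Fgf5 and Otx2 were at 0. Their sums were 223 to 282 FPKM in WT and 226 to 329 in mKO. The inner cell mass markers summed to 8.33 to 36.7 FPKM in WT and 5.49 to 7.01 in mKO. The part of these marker differences was not tested.

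The tissues themselves differed in Suz12. Over all genotypes it stood at 15.9 to 29.1 FPKM in extraembryonic ectoderm (mean 24.5 ± 5.17, SD, n = 6) and at 8.02 to 17.3 in epiblast (13.3 ± 3.53, SD, n = 6), with overlap through the mHet samples (log2 change 0.85, SE 0.23, limma adjusted p = 0.0131). That call ended with the number of genes detected as a covariate (limma adjusted p = 0.0807). Of all genes 33.5% were called in this comparison, and of the 6 core genes 1. Rbbp4 leaned the other way, at 50.7 ± 14.3 against 72.9 ± 9.22 FPKM (SD, n = 6 each; -0.55, SE 0.23, limma adjusted p = 0.0857). Rbbp7, at 198 ± 90.7 against 131 ± 30.3 FPKM (SD, n = 6 each), did not pass (0.42, SE 0.37, limma adjusted p = 0.421). In mHet extraembryonic ectoderm, sample 2 had 48.7 FPKM of Rbbp7 against 274 in sample 1, and the highest Rn45s share of the table at 11.6%. Without sample 2 Rbbp7 passed (log2 change 0.83, limma adjusted p = 0.0110). Without sample 1, Rbbp4 (-0.74, adjusted p = 0.00153) and Ezh1 (-0.63, adjusted p = 0.0359) passed as well. The Suz12 to Ezh2 ratio was 0.369 and 0.352 in WT epiblast and 0.783 and 0.763 in WT extraembryonic ectoderm.

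The genes that work with PRC2 or against it were read from lists chosen with earlier results of these data known. The accessory list held Jarid2, Aebp2, Mtf2, Phf1, Phf19, Lcor, Lcorl and E130012A19Rik (Epop), which steer the complex to its targets. The demethylase list held Kdm6a and Kdm6b, which remove the mark, and their relative Uty. Mtf2, which brings PRC2 to CpG-rich DNA, rose in mKO embryos at E4.25 from 10.1 to 65.6 FPKM (log2 change 3.04, SE 0.72, limma adjusted p = 0.0156), the 1 of 6 accessory genes tested that passed, against the 14.6% of all genes called there. The Mtf2 call ended with no filter (0.0638), with median ratio scaling (2.09, 0.190), Rn45s removed (0.0627), the number of genes detected as a covariate (0.342) and without mKO 4 (0.0619). In the other 8 knockout comparisons 0 genes of either list passed. The gene with the smallest p-value of the lists is given for each as a value. Phf1 stood at 16.0 against 11.7 FPKM in KO and WT oocytes and at 0.367 against 0.753 FPKM in 8-cell mKO and WT embryos. Lcorl stood at 1.50 against 2.11 FPKM in 1-cell embryos, and Kdm6a at 5.37 against 13.0 FPKM in late 2-cell embryos (-1.13, SE 0.26, limma adjusted p = 0.379). Uty, a Y-linked demethylase relative, was at 0 against 2.82 FPKM in the first E3.5 table, where sex and genotype go together (limma adjusted p = 0.160), and Kdm6b at 6.61 against 4.75 FPKM in the second. E130012A19Rik stood at 2.72 against 1.09 FPKM in E6.5 epiblast and at 11.8 against 6.02 FPKM in extraembryonic ectoderm. Between the E6.5 tissues 2 of 6 accessory genes and 1 of 3 genes of the demethylase list were called, shares near the 33.5% of all genes. Phf19 was at 1.99 against 0.137 FPKM (1.36, SE 0.18, limma adjusted p = 8.68e-05) and E130012A19Rik at 8.27 against 1.91 FPKM (1.62, SE 0.22, limma adjusted p = 0.000124). Kdm6a, X-linked, was lower there, at 4.50 against 9.72 FPKM (-0.91, SE 0.26, limma adjusted p = 0.0166). The Kdm6a call ended with the number of genes detected as a covariate (0.0964) and without epiblast WT 4 (0.0591), mKO 3 (0.0504) or mHet 3 (0.0534).

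The genes whose WT course was most like that of a member were taken by Pearson's r over the 9 WT stage means among 6582 genes. For Ezhip they were Fbxw28 (r = 0.997), Htra4, Cmtm2a, Oas1d and H2-T10 (r = 0.996 each). Fbxw28 means were 901 FPKM in oocytes, 692 in 1-cell and 22.6 in late 2-cell embryos, and Oas1d means 861, 1006 and 38.6 FPKM. For Ezh2 they were Dym (r = 0.990), Srpk1, Btf3l4, Ttc33 and Cenpn, and for Ezh1 Foxj3 (r = 0.992), Nup214, Pfn4, Armcx5 and Rragc. Foxj3 had means of 68.3 FPKM in 1-cell, 68.1 in late 2-cell and 3.63 in 8-cell embryos. These likenesses rest on 9 points that share their tables' scaling and carry no p.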

How the data were processed

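Per the labels, libraries were made by Smart-seq2 and sequenced on a DNBSEQ-T7 instrument. The 8 deposited tables hold FPKM as the authors computed them. The submitters' processing notes name HTSeq 0.6.0, HISAT2 2.2.1 and Trim Galore 0.4.2, and list hg19 beside mm9 without saying what each was for. How FPKM were calculated, with which annotation and strand setting, and what was done with multi-mapping reads was not given in the sources used here. By the GENCODE M21 annotation, antisense or opposite-strand genes overlap Ezh2 (Gm26625), Eed (E230029C05Rik), Suz12 (Gm26563), Rbbp4 (Gm26722 and Sync) and Rbbp7 (Txlng), so reads of these pairs may be mixed. Low values showed no step worth 1 read (at most 6.78% of genes shared a ratio), so depth is unknown.

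Columns were matched to samples by title, and the E6.5 epiblast columns, whose numbers differ from the titles, to their group alone. Of 68 samples 67 were used. Date-like or repeated gene names were dropped in 3 tables (25, 27 and 27 rows). Each table was fitted alone with limma 3.58.1 in R 4.3.3 (lmFit, eBayes with a trend) on log2(FPKM + 1), which understates changes of low genes. A gene was kept if at least 2 samples of a table reached 1 FPKM, and all genotypes of a table entered the fit, both E6.5 tissues together. The p-values are two-sided, adjusted by Benjamini and Hochberg over all genes kept, with a threshold of 0.05. The fit was tested on simulated data. Single mHet samples had no test. Alternatives were a pseudocount of 0.1, no filter, median ratio scaling, Rn45s removal, the 2 groups alone, a replicate block, the number of genes detected as a covariate, a sex term from 4 Y-linked transcripts, and each sample left out.

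The text names all 7 members, the pathway genes past the threshold or else that with the smallest p per table, and the 5 genes most like Ezhip, Ezh2 and Ezh1 among genes reaching a WT mean of 10 FPKM. Members and lists were chosen with earlier results of these data known.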

Additional observations from a re-analysis of the deposited data

Results flagged for a closer look

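Within groups of 4 or 5 samples, 5 values stood far from the rest by Dixon's criterion, out of 49 sets of values examined. A set was the FPKM of 1 member, or 1 ratio, within 1 group. For independent, normally distributed values about 1 set in 20 would be flagged, but these sets reuse the same samples. At E4.25, WT sample 3 had an Ezh1 to Ezh2 ratio of 1.52, against 0.0416 to 0.122 in the other WT samples, and the lowest Rbbp7 to Rbbp4 ratio of its group at 0.896, against 1.40 to 1.48. Ezh2 was at 0.819 FPKM in that sample and Rn45s took 68.6% of its FPKM. At E4.25, mKO sample 3 listed Ezhip at 0.0416 FPKM where the other mKO samples were at 0, and beside zeros alone any value above 0 meets the criterion. In the second E3.5 table, WT sample 6 had an Rbbp7 to Rbbp4 ratio of 4.29 beside 1.58 to 2.22, and mKO sample 7 had Rbbp7 at 50.9 FPKM beside 7.51 to 19.8.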

How the results depend on the processing

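The count of members called was unchanged by the alternatives run in KO oocytes, where Ezhip stayed called under 12 of 12 (adjusted p up to 0.0202). In 1-cell mKO embryos Ezhip was called under 10 of 11, and the count of 1 became 0 with no filter on low values. In late 2-cell mKO embryos it was called under 4 of 11, and the count of 1 became 0 with a pseudocount of 0.1, with no filter, with the number of genes detected as a covariate and in every leave-one-out fit (range 0 to 0). At E4.25 the count of 1, Eed, became 0 with a pseudocount of 0.1, no filter, median ratio scaling, Rn45s removed and the number of genes detected, and ranged from 0 to 1 with a sample left out. For Exe minus Epi the count of 1 became 2 with median ratio scaling (Rbbp4, adjusted p = 0.0283) and 0 with the number of genes detected (Suz12, 0.0807), and ranged from 1 to 3 with a sample left out. The count of 0 in mHet samples ranged from 0 to 1 in the first E3.5 table and from 0 to 2 in extraembryonic ectoderm. No called value changed sign in 68 alternative values. Of 1373 values not called, 135 had the other sign and 7 were called.

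Replicate numbers were taken to pair samples where 3 or more pairs all had a correlation over 0.1. The tables with 3 or more pairs did not meet this (0.06 to 0.14 at E4.25, -0.41 to 0.70 in the second E3.5 table). With 2 samples a group both pairs of a comparison give the same correlation by construction, so the 1-cell (0.51 to 0.56), late 2-cell (0.21 to 0.26) and first E3.5 (0.16 to 0.57) tables, all above 0.1, are too small for the criterion. Oocytes (-0.33 to 0.71) and 8-cell embryos (-0.17 and 0.30) had both signs. In oocytes the negative values were those of KO 2, and the other pairs ran from 0.59 to 0.71. The numbers were therefore not used as a pairing. In oocytes the replicate block put KO 2 with WT 2 and Het 2, which does not follow the 2 sets of oocyte samples listed above. The block moved the genes called in knockout from 1 to 2 in oocytes, 1 to 22 at the late 2-cell stage, 1 to 123 at the 8-cell stage, 4 to 13 and 5 to 11 in the E3.5 tables and 1394 to 1898 at E4.25, and changed the count of members called in no comparison. With the replicate block the log2 change of Ezhip was -8.54 in oocytes (adjusted p = 1.01e-09), -7.69 at the 1-cell stage (3.11e-05) and -3.74 at the late 2-cell stage (0.00864), and that of Eed at E4.25 had an adjusted p of 0.0170. No paired analysis was possible because the epiblast columns carry no matching numbers, as far as E6.5 is concerned. Tables were normalized separately and depth is unknown, so differences between stages cannot be weighed against counting error.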
